A study of Homo sapiens with 14 samples.

Results

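The nuclear genes of oxidative phosphorylation were taken from an RNA-Seq table of MDA-MB-231 cells by their names. All genes whose symbol starts with NDUFA, NDUFB, NDUFC, NDUFS, or NDUFV and a number, with UQCR, with COX4 to COX8, or with ATP5 were included, together with SDHA, SDHB, SDHC, and SDHD. This gave 87 of the 19410 genes in the table, with 40 named for complex I, 4 for complex II, 10 for complex III, 13 for complex IV, and 20 for complex V. The rule uses names alone, but it was chosen with earlier results of these data known. The names take in 9 genes that are not subunit genes in the strict sense. ATP5S and ATP5SL encode other proteins, NDUFC2-KCTD14 and ATP5J2-PTCD1 are read-through names, NDUFB2-AS1 is an antisense RNA, and UQCRHL, UQCRBP1, ATP5EP2, and ATP5L2 are copies or pseudogenes. NDUFA4 was counted with complex I by its name, although its protein is now known as part of complex IV.

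Oxidative phosphorylation is the last stage of respiration, in which the inner mitochondrial membrane turns the energy of NADH and succinate into ATP. Complex I (NADH dehydrogenase) and complex II (succinate dehydrogenase, which is also an enzyme of the tricarboxylic acid cycle) pass electrons to ubiquinone, complex III passes them on to cytochrome c, and complex IV hands them to oxygen. The protons pumped on the way drive complex V, the ATP synthase. The subunits of these complexes come from the nuclear genome and, apart from complex II, also from mitochondrial DNA. The mitochondrially encoded subunits were not found by name and were not analysed here. The nuclear genes lie scattered over nearly all chromosomes, and their products are needed in fixed proportions.

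The libraries come from the human triple-negative breast cancer line MDA-MB-231, left unedited (parental) or turned into 6 lines with CRISPR/Cas9, with 2 RNA-Seq libraries for each of the 7 groups. SAP30-KO1 and SAP30-KO2 carry edits of SAP30, which encodes a subunit of the SIN3 histone deacetylase complex. SIN3A/3B-DKO1 and SIN3A/3B-DKO2 carry edits of both scaffold genes of that complex, SIN3A and SIN3B, and MLL1-KO1 and MLL1-KO2 carry edits of MLL (KMT2A), a histone H3K4 methyltransferase. No treatment was compared, but the paper states that edited cells received the guide RNA vector and were selected with puromycin. Each edited line is a mixture of several expanded knockout cells, so that a line is neither a single clone nor a population edited at random. The paper does not describe these steps for the parental cells, and where they differ they cannot be told apart from the edit. The comparison asks how far the RNA of the respiratory chain depends on these chromatin regulators. Labels do not say whether the 2 libraries of a line come from separate cultures, and p-values measure only the spread between these libraries, which may be technical. The deposited values are TPM, a share of all transcripts corrected for gene length, which allow levels to be compared between genes per length. Libraries held 18415036 to 23162682 recovered reads.

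The edited genes were looked at first. SAP30 RNA was 78.9 and 82.8 TPM in parental cells and from 2.75 to 4.96 TPM in the 4 SAP30-KO libraries. SIN3B RNA was from 43.5 to 50.2 TPM in the libraries labelled SIN3A/3B-DKO against 75.1 and 77.4 TPM in parental cells, but SIN3A RNA was higher there, from 55.1 to 62.5 TPM against 43.1 and 45.4 TPM. SIN3A RNA thus went against the label, although an edit can remove a protein and leave its RNA, and SIN3A/3B-DKO is used below for the libraries labelled so, also where a direction is given. MLL RNA was 56.7 and 49.0 TPM in parental cells, from 15.8 to 17.4 TPM in MLL1-KO1, and from 25.7 to 27.7 TPM in MLL1-KO2. Markers known for MDA-MB-231 were present, with VIM at 5741 TPM or more and CD44, CAV1, and AXL at 267 TPM or more in every library, while ESR1 and PGR did not exceed 0.191 TPM and ERBB2 was from 21.9 to 42.8 TPM. The blood and endothelial markers CD3E and CDH5 stayed at or under 0.0802 TPM, PTPRC at or under 0.603 TPM, and PECAM1 at or under 3.97 TPM. Of these, PECAM1 alone passed the filter on low values used below, and from 1.62 and 1.86 TPM in parental cells it was called higher, by the limma rule given below, in both SAP30-KO lines (0.84 and 0.75 on the log2 scale) and both MLL1-KO lines (0.59 and 0.71), with 0.39 and -0.08 in the SIN3A/3B-DKO lines. The low markers CDH1 (from -1.68 to -1.09) and EPCAM (from -1.59 to -0.65) were called lower in all 6 edited lines and ERBB2 in 5, with -0.55 for MLL1-KO2. Of the 4 high markers, 1 was called lower in each SAP30-KO line, each SIN3A/3B-DKO line, and MLL1-KO2. Called higher were 2 of them in MLL1-KO1 and 1 in MLL1-KO2. The part of these markers in the values below was not tested.

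The respiratory chain genes were abundant. Together they held from 1.74% to 1.87% of all TPM of a library, a share that moved little between the 7 groups. Of the 87 genes, 82 passed the filter on low values, which asked for 1 TPM or more in 2 or more of the 14 libraries. The 82 had a median of 159 TPM in parental cells, against 25.5 TPM over all 13540 genes tested, and 77 of them were above that all-gene median. A level of 100 TPM or more was reached by 60 genes and 500 TPM or more by 6, and 3 were under 10 TPM. The complexes differed in level. Complex IV genes had the highest median, at 319 TPM, followed by complex V at 213, complex II at 150, complex I at 126, and complex III at 122 TPM. The 2 libraries of a group agreed closely, with a median coefficient of variation over the genes from 2.19% in SAP30-KO2 to 3.79% in SIN3A/3B-DKO2.

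**Figure D1:**
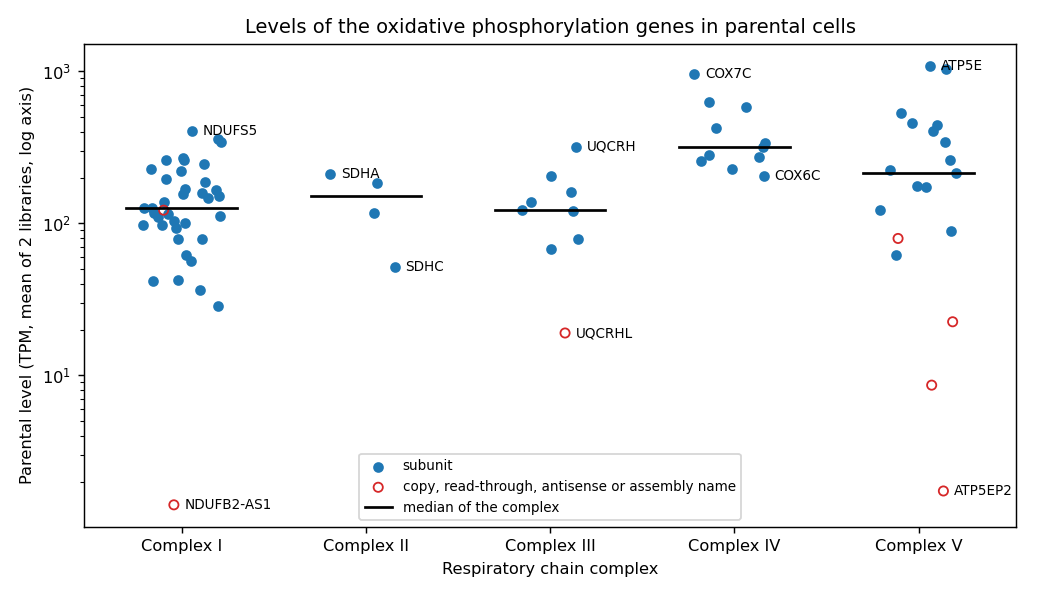
Level of each of the 82 genes that passed the filter in parental cells, as the mean TPM of 2 libraries on a log axis, by complex; black lines are the medians of the complexes, and open circles are the copies, read-through and antisense names and the 2 names that are not subunits. Complex IV sits highest, with a median of 319 TPM, and the lowest points are the open circles of NDUFB2-AS1 at 1.41 TPM and ATP5EP2 at 1.74 TPM.

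In complex I the highest gene was NDUFS5, with 387 and 427 TPM in the parental libraries, and the lowest the antisense RNA NDUFB2-AS1, with 1.69 and 1.13 TPM. In complex II, SDHA was highest, at 210 and 214 TPM, and SDHC lowest, at 52.9 and 51.01 TPM. In complex III the order ran from UQCRH, at 325 and 315 TPM, down to its copy UQCRHL, at 18.1 and 19.9 TPM. COX7C led complex IV, with 934 and 989 TPM, and COX6C closed it, with 203 and 209 TPM, so that every complex IV gene that passed was above 200 TPM. ATP5E, the epsilon subunit of the ATP synthase, was the most abundant gene of all, with 1054 and 1118 TPM, next to ATP5B, the catalytic beta subunit, with 1007 and 1051 TPM. The highest library of ATP5B was just under the lowest of ATP5E.

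The 5 genes that did not pass were NDUFA4L2, COX6B2, COX8C, ATP5L2, and UQCRBP1. None of them held more than 2 reads in any library. COX6B2 and COX8C are isoforms known from testis, and their common partners were abundant. COX6B1 was from 310 to 389 TPM and COX8A from 378 to 609 TPM over the 14 libraries, and COX6A1, the common form of another subunit with a muscle isoform, was from 243 to 293 TPM. NDUFA4L2, an isoform known to be induced by hypoxia, was at 0 in both parental libraries and did not exceed 0.206 TPM elsewhere. The isoforms COX4I2, COX6A2, COX7A1, and COX7B2 were not among the names that the rule gave, so they were not analysed here. No switch from common forms to NDUFA4L2, COX6B2, or COX8C was detectable at this depth in any line.

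Each line was then compared with parental cells on log2(TPM + 0.5) with limma. A call needed a Benjamini-Hochberg adjusted p under 0.05 over all 13540 genes and a change of 1.5-fold or more on this scale, where the added 0.5 makes the change of low genes look smaller than it is. All 6 comparisons share the same 2 parental libraries. In SAP30-KO1, 4 of the 82 genes were called higher and 3 lower, where 7.8% of all genes tested were called higher, 7.86% lower, and 15.7% in either direction. For SAP30-KO2 the counts were 4 higher and 2 lower, with 7.44%, 8.12%, and 15.6% of all genes. SIN3A/3B-DKO1 had 2 higher and 0 lower (7.76%, 8.66%, and 16.4% of all genes), and SIN3A/3B-DKO2 had 3 higher and 0 lower (6.0%, 7.56%, and 13.6%). Without a fold minimum, 15 and 13 genes were lower in these 2 lines at an adjusted p under 0.05 from limma. MLL1-KO1 and MLL1-KO2 each had 4 higher and 3 lower, against backgrounds of 6.89% higher, 16.3% lower, and 23.2% in either direction for the first and 10.2%, 14.9%, and 25.2% for the second. From 2.44% to 8.54% of the respiratory chain genes were thus called, a smaller share than that of all genes in each of the 6 lines.

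Most of the differences were small. At an adjusted p under 0.05 alone, 18 of the 82 genes were higher and 20 lower in SAP30-KO1 (28.1% and 22.9% of all genes), 20 and 19 in SAP30-KO2 (26.9% and 24.8%), 23 and 15 for SIN3A/3B-DKO1 (27.8% and 28.2%), and 25 and 13 for SIN3A/3B-DKO2 (25.7% and 23.9%). MLL1-KO1 had 17 higher and 22 lower (21.8% and 38.7% of all genes), and MLL1-KO2 had 29 and 24 (28.0% and 36.2%). The median size of the log2 fold change was from 0.12 to 0.18 over the 82 genes and from 0.22 to 0.31 over all genes. The genes within 1.2-fold of parental in all 6 lines numbered 41, against 16.4% of all genes, and 70, or 85.4%, stayed within 1.5-fold in all lines, against 55.4%. The median signed log2 fold change of the 82 genes lay between 0.01 and 0.05 in every line, with no common shift of the respiratory chain beyond that, and under another scaling (median of ratios) it was between -0.04 and 0.13. These genes are also more abundant than most, and the part of abundance in the smaller changes was not tested. Fewer cells of a type and less RNA per cell cannot be told apart in bulk RNA.

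**Figure D2:**
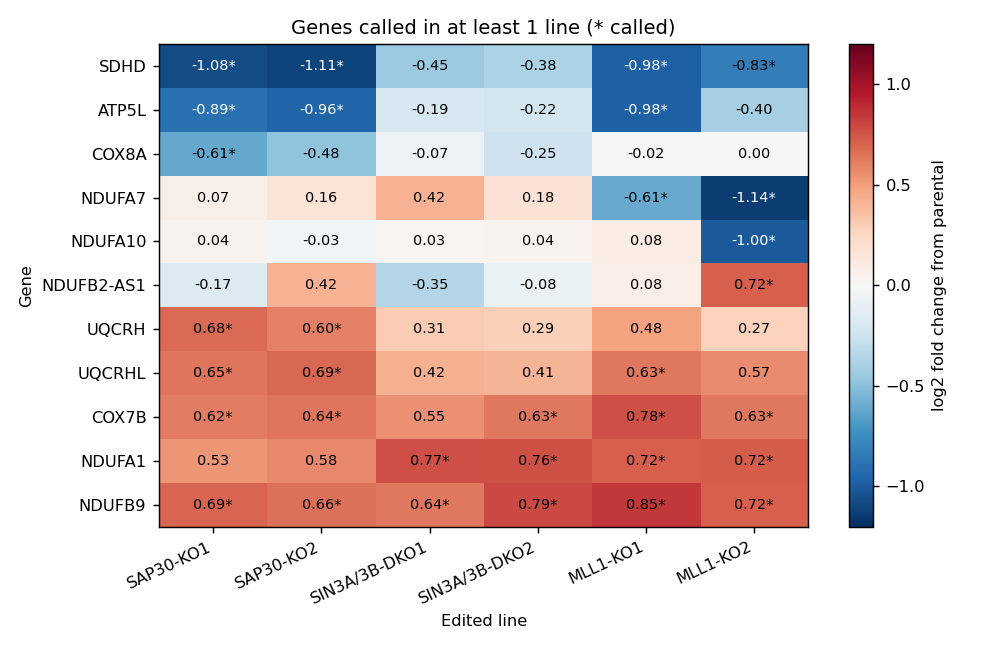
Log2 fold change from parental of the 11 genes called in at least 1 line (rows, ordered by their mean) in the 6 edited lines (columns), in color and in figures, with called values starred. NDUFB9 is starred in all 6 lines, SDHD is the lowest row with values from -1.11 to -0.38, and NDUFA7 is starred in the MLL1-KO lines alone.

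Of the 82 genes, 11 were called in at least 1 line, which is 13.4% against 41.4% of all genes, and 71 in none. Complex I had 5 of the 11, complexes III and IV had 2 each, and complexes II and V had 1 each. Genes called in both lines of a genotype numbered 8. The share of all genes called so is not given here, so this count describes the 82 genes alone. Among the 8, SDHD, ATP5L, and NDUFA7 were lower, and NDUFB9, NDUFA1, COX7B, UQCRH, and UQCRHL were higher. The other 3 of the 11 were COX8A, NDUFA10, and NDUFB2-AS1, each called in 1 line. At an adjusted p under 0.05 without a fold minimum, 7 genes were higher in all 6 lines (NDUFB9, NDUFA1, COX7B, UQCRH, UQCRHL, NDUFA11, and COX5B) and 6 were lower in all 6 (SDHD, ATP5L, COX4I1, UQCRB, SDHA, and ATP5B). That is 15.9% of the 82 genes, near the 15.7% of all genes with this property, and all of it is measured against the same parental pair.

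The promoters of genes that carry these results are shown to give the reader their sequence context. Each is the 150 bases before the start of transcription, from RefSeq on GRCh38.p14, written along the strand of the gene. SDHD (chr11:112086723-112086872, + strand) and ATP5L (chr11:118401456-118401605, + strand) are on the long arm of chromosome 11, NDUFA1 (chrX:119871682-119871831, + strand) and COX7B (chrX:77899318-77899467, + strand) are on the long arm of the X chromosome, and UQCRH (chr1:46303548-46303697, + strand) and NDUFA7 (chr19:8321376-8321525, - strand) are on chromosomes 1 and 19. Capitals mark matches to the palindromic consensus of NRF1 or to the letters ACTTCCGG of the ETS family (the family of GABP), both known regulators of respiratory genes.
SDHD: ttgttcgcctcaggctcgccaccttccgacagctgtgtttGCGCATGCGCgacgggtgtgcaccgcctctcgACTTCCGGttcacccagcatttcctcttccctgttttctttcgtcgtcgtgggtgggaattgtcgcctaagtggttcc
ATP5L: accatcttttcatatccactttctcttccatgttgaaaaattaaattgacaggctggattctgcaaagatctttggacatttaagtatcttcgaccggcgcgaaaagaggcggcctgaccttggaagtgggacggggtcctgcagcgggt
NDUFA1: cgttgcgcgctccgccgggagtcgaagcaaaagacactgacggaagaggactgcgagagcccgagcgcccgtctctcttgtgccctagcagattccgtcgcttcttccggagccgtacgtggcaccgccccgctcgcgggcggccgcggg
COX7B: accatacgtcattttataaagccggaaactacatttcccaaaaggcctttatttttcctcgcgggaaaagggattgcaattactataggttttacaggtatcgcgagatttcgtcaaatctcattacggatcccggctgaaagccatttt
UQCRH: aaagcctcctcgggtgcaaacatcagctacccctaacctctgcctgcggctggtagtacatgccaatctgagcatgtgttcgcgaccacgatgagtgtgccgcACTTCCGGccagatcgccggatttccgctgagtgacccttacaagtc
NDUFA7: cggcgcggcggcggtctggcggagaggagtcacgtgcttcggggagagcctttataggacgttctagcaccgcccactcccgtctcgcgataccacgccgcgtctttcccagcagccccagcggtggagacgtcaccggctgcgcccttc
The SDHD promoter holds the NRF1 consensus from base -110 and the ETS letters from base -78, counted from the start, and the UQCRH promoter holds the ETS letters from base -47. NDUFA7 holds the letters AAGATGGCG of YY1 from base 15 after the start, outside the stretch shown. The promoters of ATP5L, NDUFA1, and COX7B hold none of the motifs in the window searched.

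The search covered both strands of 250 bases before and 50 bases after each start. Of the 87 genes, 67 had a promoter in the RefSeq table, 65 of them past the filter. Among the 65, 15 held the NRF1 consensus, or 23.1%, against 6.28% of all 27305 promoters. The ETS letters were in 9 (13.8% against 4.44%), and the YY1 letters were in 8 (12.3% against 1.85%). The median number of CG dinucleotides was 23 in these promoters and 14 in all. SDHA held the NRF1 consensus at 4 positions, NDUFB4 at 3, and NDUFA3, NDUFA8, UQCR11, and ATP5I at 2 positions each, which can overlap. A match is a description of letters and not a site in use, and genes that moved and genes that stayed both had promoters with and without them.

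In complex II, SDHD RNA was lower in every edited library than in either parental library, and no other subunit of the complex changed by 1.5-fold. SDHD encodes the small membrane anchor that holds the enzyme in the inner membrane and helps to bind ubiquinone. It lies at chr11:111957548-111990739 on GRCh37. It was 123 and 111 TPM in parental cells, 56.4 and 54.0 for SAP30-KO1, 56.3 and 51.5 for SAP30-KO2, 87.2 and 84.2 for SIN3A/3B-DKO1, 81.2 and 98.8 for SIN3A/3B-DKO2, 56.3 and 61.7 for MLL1-KO1, and 69.5 and 62.2 for MLL1-KO2. The SAP30-KO and MLL1-KO libraries did not overlap with parental or SIN3A/3B-DKO libraries. The log2 fold change was -1.08 in SAP30-KO1 (SE 0.09, adjusted p = 3.9e-06 from limma) and -1.11 in SAP30-KO2 (SE 0.09, adjusted p = 2.9e-06). It was -0.98 for MLL1-KO1 and -0.83 for MLL1-KO2, and it reached -0.45 and -0.38 in the SIN3A/3B-DKO lines, where it passed the p threshold but not the fold minimum.

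The partners of SDHD moved less. SDHA, the flavoprotein that oxidizes succinate, was 210 and 214 TPM in parental cells and from 166 to 202 TPM in the 12 edited libraries, with log2 fold changes from -0.30 to -0.10. SDHB, the iron-sulfur subunit, was 182 and 185 TPM in parental cells and from 152 to 193 TPM elsewhere. SDHC, the other membrane anchor, was 52.9 and 51.01 TPM in parental cells and from 39.0 to 42.6 TPM in the 4 MLL1-KO libraries, a log2 fold change of -0.37 and -0.31 that passed the p threshold (adjusted p = 8.2e-05 and 0.00023 from limma) but not the fold minimum. In the SIN3A/3B-DKO lines SDHC was slightly above parental, by 0.14 and 0.16 on the log2 scale. The ratio of SDHD to SDHB was 0.677 and 0.601 in the parental libraries, from 0.310 to 0.346 in the SAP30-KO libraries, and from 0.292 to 0.431 in the MLL1-KO libraries. The TPM of the 4 subunits added up to 567 and 561 in parental cells and to between 430 and 501 in the edited libraries. Complex II had the lowest median of the 5 complexes in all 6 lines, from -0.30 to -0.20 on the log2 scale.

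In complex I, NDUFB9 was called higher in all 6 lines and NDUFA1 in 4, whereas NDUFA7 was called lower in both MLL1-KO lines and NDUFA10 in MLL1-KO2 alone. NDUFB9, an accessory subunit of the membrane arm, was the one gene of the 82 that was called in every line. It was 147 and 157 TPM in parental cells, 239 and 253 for SAP30-KO1, 242 and 237 for SAP30-KO2, 240 and 232 for SIN3A/3B-DKO1, 261 and 264 for SIN3A/3B-DKO2, 261 and 285 for MLL1-KO1, and 239 and 260 for MLL1-KO2. All 12 edited libraries lay within 232 to 285 TPM, far above the parental pair. The log2 fold change was from 0.64 in SIN3A/3B-DKO1 (SE 0.05, adjusted p = 2.8e-06 from limma) to 0.85 in MLL1-KO1 (SE 0.05, adjusted p = 1.5e-07). Its 50 nearest tested genes on the chromosome had a median log2 fold change from 0.06 to 0.20 in the 6 lines.

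NDUFA1, a small subunit of the membrane arm encoded at chrX:119005795-119010625, was 248 and 291 TPM in parental cells. It was 359 and 417 TPM in SAP30-KO1, 398 and 403 for SAP30-KO2, 469 and 448 for SIN3A/3B-DKO1, 485 and 429 for SIN3A/3B-DKO2, 441 and 444 for MLL1-KO1, and 438 and 449 for MLL1-KO2. No edited library overlapped with parental. The gene was called in both SIN3A/3B-DKO lines (0.77 and 0.76 on the log2 scale, SE 0.08, adjusted p = 1.9e-05 and 2.5e-05 from limma) and in both MLL1-KO lines (0.72 in each). In the SAP30-KO lines the log2 fold change was 0.53 and 0.58, just short of the fold minimum. The neighbors of NDUFA1 had medians from 0.41 to 0.66 over the 6 lines.

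NDUFA7, an accessory subunit of the peripheral arm at chr19:8373652-8386259, fell in the MLL1-KO lines. It was 76.8 and 82.0 TPM in parental cells, from 81.0 to 112 TPM in the 8 libraries of the SIN3A/3B-DKO and SAP30-KO lines, 54.5 and 49.4 TPM in MLL1-KO1, and 35.1 and 36.6 TPM in MLL1-KO2. The 4 MLL1-KO libraries were the lowest of the 14 and did not overlap with the rest. The log2 fold change was -0.61 in MLL1-KO1 (SE 0.07, adjusted p = 3.5e-05 from limma) and -1.14 in MLL1-KO2 (SE 0.07, adjusted p = 2.0e-07). The first of these was close to the fold minimum and was lost without parental replicate 2 (-0.56), without MLL1-KO1 replicate 2 (-0.54), and under quantile normalization (-0.53). The neighbors' median was 0.00 for MLL1-KO1 and 0.01 for MLL1-KO2. NDUFA7 shares 218 bases with RPS28, a ribosomal protein gene on the opposite strand, and the sources do not state that reads were counted by strand. RPS28 was from 444 to 556 TPM over the 14 libraries, and the ratio of NDUFA7 to RPS28 was 0.146 and 0.155 in parental cells, from 0.151 to 0.210 in the 8 libraries of the SIN3A/3B-DKO and SAP30-KO lines, and from 0.0789 to 0.0980 in the MLL1-KO libraries.

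NDUFA10, an accessory subunit of the membrane arm, was low in MLL1-KO2 alone. It was 26.5 and 30.5 TPM in parental cells, from 27.8 to 30.9 TPM in the 10 libraries of the other edited lines, and 14.1 and 13.7 TPM in MLL1-KO2, a log2 fold change of -1.004 (SE 0.06, adjusted p = 1.3e-07 from limma). The neighbors' median in MLL1-KO2 was -0.83. NDUFB2-AS1 was called higher in MLL1-KO2 (0.72, SE 0.20, adjusted p = 0.0088 from limma) on few reads, from 12 to 33 in the 14 libraries. The call was lost without parental replicate 2 (0.50) and without MLL1-KO2 replicate 1 (0.56). It lies antisense to NDUFB2, and without strand their reads cannot be told apart.

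Of the other complex I genes, most stayed near parental. NDUFS1, the largest subunit, was at log2 fold changes from -0.19 to -0.01, NDUFS3 from -0.03 to 0.12, and NDUFB8 from -0.06 to 0.04. NDUFA11 was above parental in all 6 lines at an adjusted p under 0.05, from 0.13 to 0.36, without reaching the fold minimum. NDUFB5 was below parental in all 6 lines, from -0.53 to -0.11, and passed the p threshold in 5. The read-through name NDUFC2-KCTD14 shares exons with NDUFC2, and its log2 fold changes, from -0.21 to 0.32, cannot be told apart from those of its parts. NDUFB4 reached 0.52 for MLL1-KO2 and stood at 0.03 and 0.10 in the SIN3A/3B-DKO lines.

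In complex III, UQCRH was higher in the SAP30-KO lines. UQCRH encodes the hinge protein, which helps cytochrome c1 to bind cytochrome c. It was 325 and 315 TPM in parental cells, 506 and 521 for SAP30-KO1, 490 and 482 for SAP30-KO2, 394 and 399 for SIN3A/3B-DKO1, 384 and 398 for SIN3A/3B-DKO2, 441 and 456 for MLL1-KO1, and 411 and 364 for MLL1-KO2. Every edited library was above parental, with the SAP30-KO libraries on top. The log2 fold change was 0.68 in SAP30-KO1 (SE 0.05, adjusted p = 1.0e-06 from limma) and 0.60 in SAP30-KO2 (SE 0.05, adjusted p = 2.4e-06), the latter 0.58 and not called without parental replicate 2 and 0.57 and not called under median ratio scaling. The neighbors' medians were 0.66 and 0.59. UQCRHL, a near-identical copy on the same chromosome, was 18.1 and 19.9 TPM in parental cells and from 23.6 to 32.3 TPM in the edited libraries. It was called in SAP30-KO1 (0.65), SAP30-KO2 (0.69), and MLL1-KO1 (0.63), with neighbors at -0.03, -0.06, and -0.04. Reads of UQCRH can be counted for this copy, and its values are uncertain. The call of UQCRHL was lost in SAP30-KO1 without parental replicate 1 (0.58) or without SAP30-KO1 replicate 2 (0.57), and in MLL1-KO1 without parental replicate 1 (0.56).

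The remaining genes of complex III were not called in any line. UQCRB, which helps to bind ubiquinone, was below parental in all 6 lines at an adjusted p under 0.05, with log2 fold changes from -0.39 to -0.21. UQCRC1, a core subunit, was 0.37 and 0.36 above parental in the MLL1-KO lines and from -0.08 to 0.15 in the other 4. UQCRFS1, the Rieske iron-sulfur protein, was 0.20 and 0.18 above parental in the MLL1-KO lines. UQCR11 and UQCRQ stayed between 0.06 and 0.20 in all lines.

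In complex IV, COX7B was higher in all 6 lines and COX4I1 lower in all 6 at an adjusted p under 0.05, the latter without reaching the fold minimum, and COX8A was called lower in SAP30-KO1. COX7B, a small subunit at chrX:77154937-77162873, was 399 and 454 TPM in parental cells, 612 and 694 for SAP30-KO1, 645 and 682 for SAP30-KO2, 611 and 638 for SIN3A/3B-DKO1, 666 and 652 for SIN3A/3B-DKO2, 714 and 743 for MLL1-KO1, and 651 and 669 for MLL1-KO2. The lowest edited library was well above the higher parental one. The gene was called in 5 lines, with log2 fold changes from 0.62 in SAP30-KO1 (SE 0.07, adjusted p = 2.0e-05 from limma) to 0.78 in MLL1-KO1 (SE 0.07, adjusted p = 2.0e-06), and it was at 0.55 for SIN3A/3B-DKO1. Parental replicate 1 decided several of these calls. Without it the values were 0.52 for SAP30-KO1, 0.55 for SAP30-KO2, and 0.54 for both SIN3A/3B-DKO2 and MLL1-KO2, and the SAP30-KO1 value was also 0.52 without SAP30-KO1 replicate 2 and 0.57, again not called, under median ratio scaling. The neighbors' medians were from 0.26 to 0.55. COX7C, the most abundant gene of the complex, stayed between -0.06 and 0.10, so that the ratio of COX7B to COX7C went from 0.427 and 0.459 in parental cells to between 0.620 and 0.779 in the edited libraries.

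COX8A, the smallest subunit of the core enzyme, was 588 and 576 TPM in parental cells, 382 and 378 for SAP30-KO1, and 431 and 404 for SAP30-KO2. It was called in SAP30-KO1 (-0.61, SE 0.07, adjusted p = 4.8e-05 from limma) and fell short of the fold minimum in SAP30-KO2 (-0.48). In the MLL1-KO lines it was at -0.02 and 0.00. COX4I1, which encodes the largest nuclear subunit of the complex, was 623 and 633 TPM in parental cells and from 455 to 521 TPM in all 12 edited libraries. Its log2 fold change was from -0.45 to -0.29, below the fold minimum, with neighbors on the long arm of chromosome 16 from -0.56 to -0.40. COX5B was above parental in all 6 lines, from 0.17 to 0.40, and COX5A, COX6C, and COX7A2 stayed between -0.09 and 0.12.

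In complex V, ATP5L was the only gene called in any line. ATP5L encodes subunit g of the membrane part of the ATP synthase, where the enzyme forms dimers. It lies at chr11:118272061-118303993, and MLL itself starts 3178 bases beyond its end. ATP5L was 341 and 342 TPM in parental cells, 188 and 180 for SAP30-KO1, 170 and 181 for SAP30-KO2, 295 and 303 for SIN3A/3B-DKO1, 298 and 288 for SIN3A/3B-DKO2, 177 and 169 for MLL1-KO1, and 267 and 251 for MLL1-KO2. The libraries of SAP30-KO1, SAP30-KO2, and MLL1-KO1 formed the low end, and MLL1-KO2 stood between them and parental. The log2 fold change was -0.89 for SAP30-KO1, -0.96 for SAP30-KO2, and -0.98 in MLL1-KO1 (SE 0.04 and adjusted p from 9.3e-09 to 5.9e-08 in limma), against -0.40 for MLL1-KO2 and -0.19 and -0.22 in the SIN3A/3B-DKO lines. The neighbors' medians followed it, at -0.91, -0.84, and -0.95 in the 3 called lines, -0.43 for MLL1-KO2, and -0.29 and -0.20 in the SIN3A/3B-DKO lines. MLL RNA had log2 fold changes of -0.95 and -0.65 in the SAP30-KO lines, where MLL was not targeted.

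Of the 5 genes of the catalytic F1 part of the ATP synthase, ATP5B was lower in all 6 lines at an adjusted p under 0.05, and none reached the fold minimum. ATP5B (beta) was at log2 fold changes from -0.32 to -0.14, ATP5A1 (alpha) from -0.32 to -0.06, ATP5C1 (gamma) from -0.17 to 0.01, ATP5D (delta) from -0.06 to 0.19, and ATP5E (epsilon) from -0.25 to 0.04. The 3 genes of the rotating c ring, whose mature proteins are identical, had different values. ATP5G1 was 214 and 234 TPM in parental cells, from 233 to 272 TPM in the 8 libraries of the SIN3A/3B-DKO and SAP30-KO lines, and from 170 to 198 TPM in the MLL1-KO libraries, with log2 fold changes of -0.26 and -0.37 there (adjusted p = 0.011 and 0.0015 from limma). Its neighbors' medians in these 2 lines were -0.60 and -0.44. ATP5G2 was from 146 to 194 TPM and ATP5G3 from 86.4 to 103 TPM over all 14 libraries. ATP5I, subunit e, was above parental by 0.25 to 0.43 in 5 lines and at -0.02 for MLL1-KO1. The pseudogene ATP5EP2 was 0.756 and 2.72 TPM in parental cells, and its log2 fold changes from -0.34 to 0.78 passed no test.

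**Figure D3:**
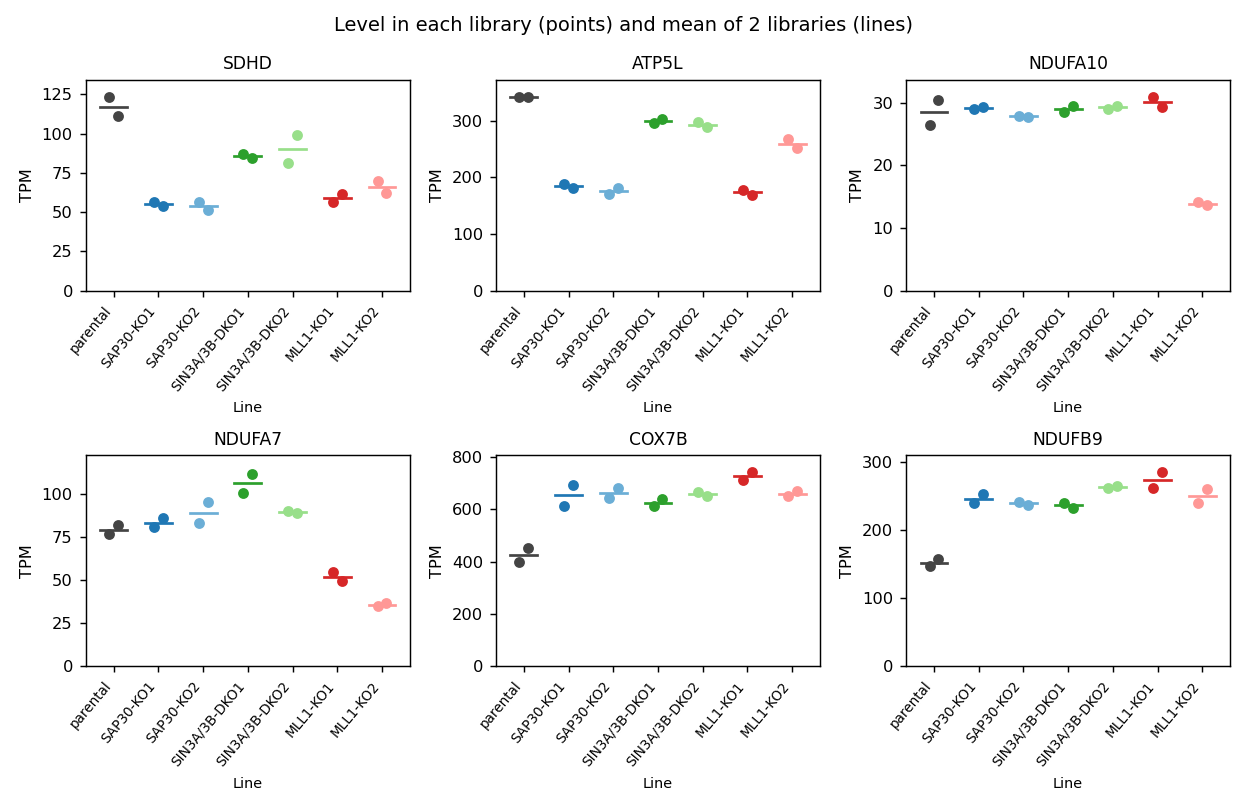
TPM of SDHD, ATP5L, NDUFA10, NDUFA7, COX7B, and NDUFB9 in each of the 14 libraries (points) with the mean of the 2 libraries of a group (lines), on axes that start at 0. SDHD and ATP5L are lowest in the SAP30-KO and MLL1-KO1 libraries, NDUFA10 is low in MLL1-KO2 alone (14.1 and 13.7 TPM), NDUFA7 is low in both MLL1-KO lines, and COX7B and NDUFB9 are above parental in all edited libraries.

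The values just inside and just outside the fold minimum were close together. In SAP30-KO1 they were COX8A at -0.61 and NDUFA1 at 0.53, in SAP30-KO2 UQCRH at 0.60 and NDUFA1 at 0.58, and in SIN3A/3B-DKO1 NDUFB9 at 0.64 and COX7B at 0.55. In SIN3A/3B-DKO2 they were COX7B at 0.63 and ATP5S at 0.48, in MLL1-KO1 NDUFA7 at -0.61 and NDUFA9 at 0.56, and in MLL1-KO2 COX7B at 0.63 and UQCRHL at 0.57.

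The change of each gene was set beside that of its neighbors on the chromosome. For each of the 82 genes, the median log2 fold change of the 50 nearest other tested genes was taken from the same comparison. Where that median was 0.3 or more in size, the gene had the same sign in 14 of 14 cases in SAP30-KO1, 14 of 14 for SAP30-KO2, 8 of 8 for SIN3A/3B-DKO1, 5 of 5 for SIN3A/3B-DKO2, and 11 of 12 in each MLL1-KO line. Over the 82 genes, Pearson's r between a gene and its neighbors was from 0.49 in SIN3A/3B-DKO1 to 0.81 for SAP30-KO1, and Spearman's rho was from 0.36 to 0.57, given as a description, since the points share libraries and nearby genes share neighbors. Taking the neighbors' median off the log2 fold change made its median size smaller in the SAP30-KO and SIN3A/3B-DKO lines (from 0.13 to 0.15 before and from 0.10 to 0.11 after) but larger in MLL1-KO1 (0.12 before and 0.15 after) and MLL1-KO2 (0.18 and 0.19). When a running median over 51 neighboring genes was subtracted from each library, 7 of the 32 calls held. They were NDUFB9 in both MLL1-KO lines (0.72 and 0.60), UQCRHL in SAP30-KO1, SAP30-KO2, and MLL1-KO1, NDUFA7 in MLL1-KO2 (-1.09), and NDUFB2-AS1 for MLL1-KO2. There were 2 new calls, UQCRFS1 (0.65) and NDUFB4 (0.61) in MLL1-KO2. NDUFB9 stayed at 0.43 to 0.56 in the other 4 lines, and NDUFA7 at -0.53 for MLL1-KO1. SDHD was left at -0.26 and -0.27 in the SAP30-KO lines and at -0.03 and -0.37 in the MLL1-KO lines, and ATP5L between -0.05 and 0.10 in all lines. The subtraction also removes any change that neighboring genes have in common. How many calls over all genes held is not given here, so the loss cannot be read as particular to these 82 genes. DNA was not measured, and the part of chromosome position in these values was not tested.

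**Figure D4:**
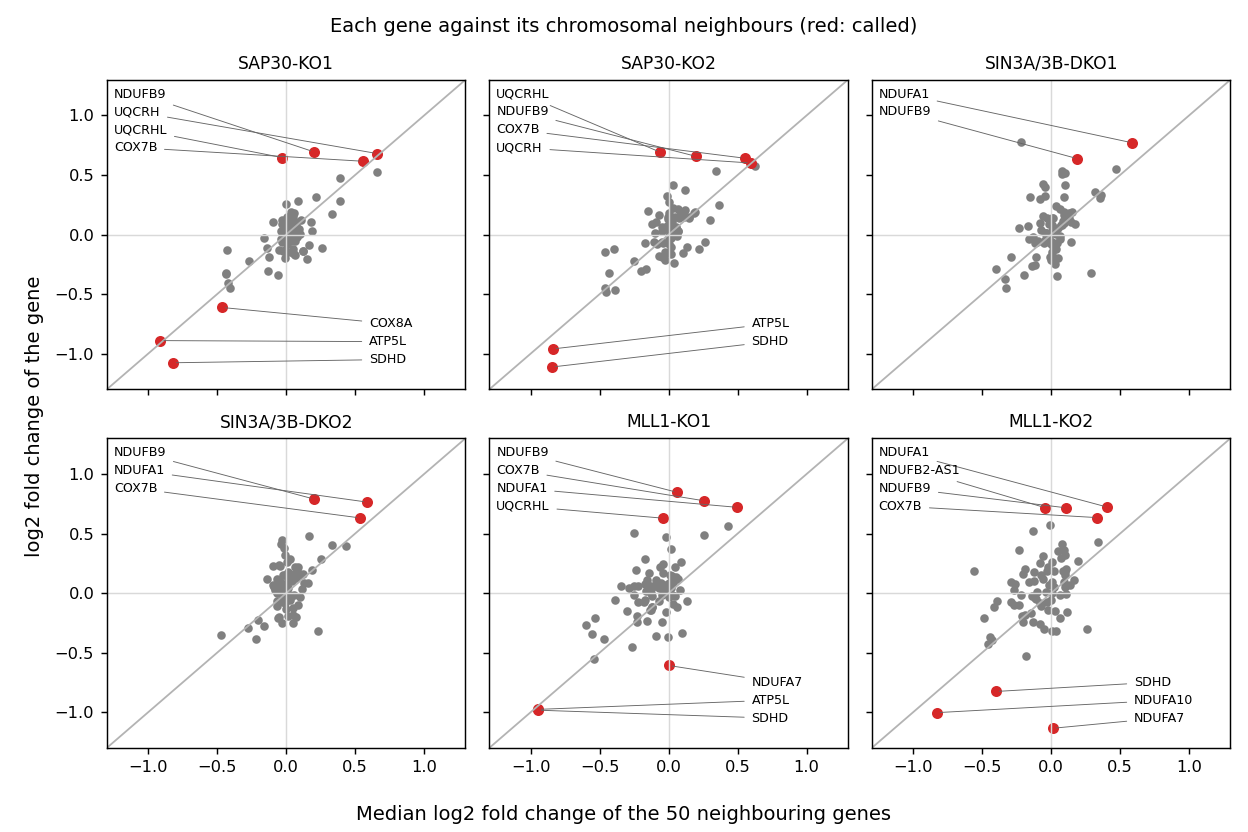
Log2 fold change of each of the 82 genes (y axis) against the median log2 fold change of its 50 neighboring genes (x axis) in the 6 lines, with called genes in red and the line of equal values in gray. ATP5L (-0.89 against -0.91 for its neighbors) and UQCRH (0.68 against 0.66) lie close to the line in SAP30-KO1, whereas NDUFA7 (-1.14 against 0.01 in MLL1-KO2), NDUFB9 (0.85 against 0.06 in MLL1-KO1), and UQCRHL lie far from it.

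The long arm of chromosome 11 holds 6 subunit genes, one or more from complexes I, II, IV, and V. Ordered from the centromere they are COX8A, NDUFV1, NDUFS8, NDUFC2, SDHD, and ATP5L. In the SAP30-KO lines all 6 were below parental, with log2 fold changes from -0.34 to -0.15 for NDUFV1 and NDUFS8, -0.45 and -0.47 for NDUFC2, and from -1.11 to -0.89 for SDHD and ATP5L. In MLL1-KO1 the sign turned along the arm. NDUFV1 (the subunit that binds NADH and flavin) was at 0.47 and NDUFS8 (an iron-sulfur subunit) at 0.24, whereas NDUFC2 was at -0.55, SDHD at -0.98, and ATP5L at -0.98. MLL1-KO2 had NDUFV1 at 0.41, NDUFC2 at 0.10, SDHD at -0.83, and ATP5L at -0.40. In the SIN3A/3B-DKO lines NDUFV1 was at 0.53 and 0.45 and SDHD at -0.45 and -0.38, and NDUFS8 had its highest value, 0.51, in SIN3A/3B-DKO1. NDUFV1 did not move with its neighbors in these lines, since their medians were 0.08 and -0.03 in the SIN3A/3B-DKO lines and -0.02 and 0.08 in the MLL1-KO lines, against -0.43 in both SAP30-KO lines. NDUFS8 was likewise above its neighbors in MLL1-KO1, where their median was -0.04, and in SAP30-KO2 (-0.15 against -0.46). NDUFA4, on the short arm of chromosome 7, had log2 fold changes of 0.47 and 0.54 in the SAP30-KO lines and 0.33 and 0.40 in the SIN3A/3B-DKO lines, but -0.15 and -0.11 in the MLL1-KO lines. Its neighbors' medians were from 0.34 to 0.43 in the first 4 lines and -0.30 and -0.42 in the MLL1-KO lines.

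**Figure D5:**
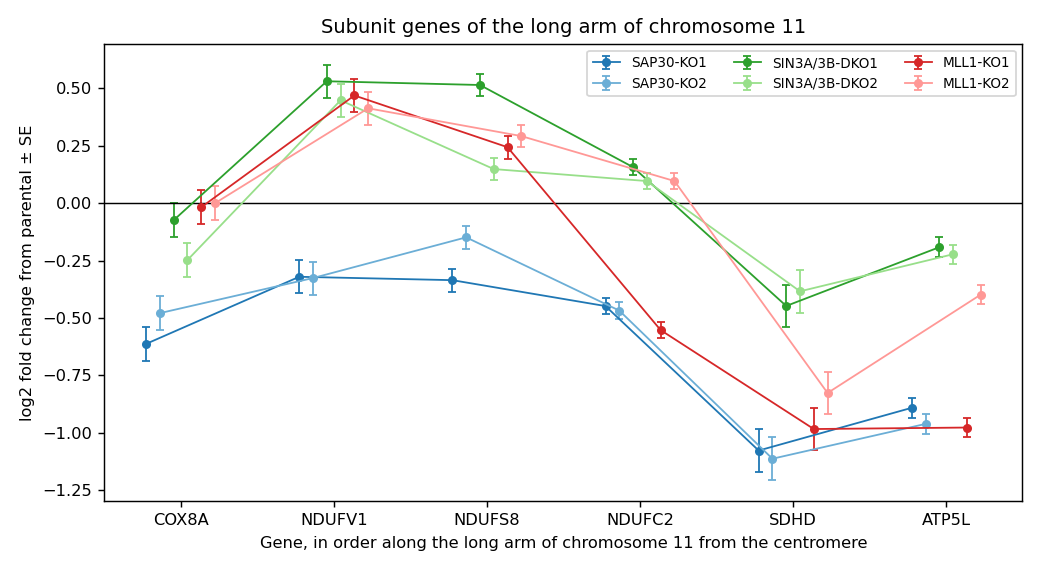
Log2 fold change from parental, with standard errors from limma as bars, of the 6 subunit genes on the long arm of chromosome 11 in their order from the centromere (x axis, not to scale) in the 6 lines. The SAP30-KO lines lie below 0 for all 6 genes, MLL1-KO1 passes from 0.47 at NDUFV1 to -0.98 at SDHD and ATP5L, and the SIN3A/3B-DKO lines reach their lowest values at SDHD.

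Genotypes were compared directly with the 4 libraries of both lines of each, and the parental libraries entered only the estimate of the spread. That spread is between the 2 libraries of a group. The p-values here do not measure differences between the 2 lines of a genotype. Between MLL1-KO and SAP30-KO lines, 3 of the 82 genes were called, against 19.8% of all genes. NDUFA7 was lower in MLL1-KO (-0.99, SE 0.05, adjusted p = 2.6e-08 from limma), as was NDUFA4 (-0.63, SE 0.03, adjusted p = 3.1e-09), and NDUFV1 was higher (0.76, SE 0.05, adjusted p = 1.7e-07). Their neighbors' medians were -0.14, -0.75, and 0.48. The call of NDUFA4 was lost under quantile normalization (-0.58), under median ratio scaling (-0.53), and with trends of GC content and length removed (-0.43), and its value was 0.11 with the running median subtracted. Between MLL1-KO and SIN3A/3B-DKO lines, 2 genes were called, against 19.9% of all genes, NDUFA7 (-1.17, SE 0.05, adjusted p = 6.4e-09 from limma) and NDUFB2-AS1 (0.61, SE 0.14, adjusted p = 0.0026). The latter was lost without SIN3A/3B-DKO1 replicate 2 (0.57), SIN3A/3B-DKO2 replicate 1 (0.49), or MLL1-KO2 replicate 1 (0.53), and with a pseudocount of 1 (0.49). Between SAP30-KO and SIN3A/3B-DKO lines, which are edited in the same complex, 3 genes were called, against 7.47% of all genes. NDUFV1 (-0.81), ATP5L (-0.72), and SDHD (-0.68) were all lower in SAP30-KO, all lie on the long arm of chromosome 11, and had neighbors' medians of -0.53, -0.62, and -0.54. Without SAP30-KO2 replicate 1, SIN3A/3B-DKO1 replicate 2, or SIN3A/3B-DKO2 replicate 2, 5 genes were called in this last comparison.

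The 2 lines of a genotype were compared in the same fit. SAP30-KO1 and SAP30-KO2 did not differ by a call in any of the 82 genes, nor at an adjusted p under 0.05 alone (0 genes from limma), where 0.148% of all genes were called and 0.524% passed on p alone. The SIN3A/3B-DKO lines had 0 calls and 6 genes at an adjusted p under 0.05 from limma alone, against 2.23% of all genes called and 12.5% on p alone. One gene was called there without SIN3A/3B-DKO2 replicate 2. The MLL1-KO lines differed in 4 of the 82 genes, against 10.4% of all genes, and 25 passed on p alone, against 42.1%. NDUFA10 (1.09) and NDUFA9 (0.64) were higher in MLL1-KO1, and NDUFC2 (-0.65) and NDUFB2-AS1 (-0.63) were lower. NDUFA9, an accessory subunit at the joint of the 2 arms of complex I, was 117 and 113 TPM in parental cells, 166 and 174 for MLL1-KO1, and 105 and 111 for MLL1-KO2. NDUFC2, a subunit of the membrane arm, was 102 and 100 TPM in parental cells, 68.8 and 68.6 for MLL1-KO1, and 108 in both MLL1-KO2 libraries. The neighbors' medians of NDUFA10, NDUFA9, and NDUFC2 in this comparison were 0.85, 0.48, and -0.44. For NDUFB2-AS1 it was -0.03, and this call was lost without either MLL1-KO1 replicate (-0.62 and -0.64) or without MLL1-KO2 replicate 1 (-0.48). It was also lost under quantile normalization (-0.52), with a pseudocount of 1 (-0.53), and with trends of GC content and length removed (-0.57).

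Other genes of respiration were set beside the subunits from lists of names. Neighbors' medians were not taken for these listed genes, and the part of chromosome position in their values was not tested. Of 6 subunits and carriers that the naming rule leaves out, CYCS (cytochrome c) was called higher in SAP30-KO1 (0.60) and SIN3A/3B-DKO2 (0.62) and stood at 0.49 and 0.46 in their sister lines. CYC1, NDUFAB1, ATPIF1, USMG5, and C14orf2 were not called in any line. Of 42 assembly factors, 4 were called in SAP30-KO1, 5 for SAP30-KO2, 3 for SIN3A/3B-DKO1, 1 for SIN3A/3B-DKO2, 3 for MLL1-KO1, and 2 for MLL1-KO2. That is from 2.38% to 11.9% of the list, in each line a smaller share than that of all genes, which was from 13.6% to 25.2%. Called in both SAP30-KO lines were ATPAF1, a chaperone of the ATP synthase head (0.71 and 0.62), and COX19 (0.74 and 0.64) among the higher, and COA4 (-0.72 and -0.81) and SDHAF2, which helps to attach the flavin to SDHA (-0.61 and -0.64), among the lower. Of 79 mitochondrial ribosomal protein genes, from 0 to 6 were called in a line, 0 of them in SAP30-KO1 and in SIN3A/3B-DKO2. Their share, at most 7.59%, was also under that of all genes in each line.

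Of 22 regulators of respiratory and mitochondrial genes, PPARGC1A, a coactivator of mitochondrial biogenesis, was called higher in both SAP30-KO lines (0.91 and 0.73) and both SIN3A/3B-DKO lines (0.80 and 0.64) from a low parental level of 4.12 and 3.39 TPM. MYC (0.66) was higher in SIN3A/3B-DKO1 and POLG (-0.61) lower in SAP30-KO1, and none of the 22 was called in an MLL1-KO line. At most 9.09% of these regulators were called in a line, again under the share of all genes in each. Of 19 genes of the tricarboxylic acid cycle and pyruvate dehydrogenase, which feed the chain with NADH and succinate, 0 were higher and 4 lower in MLL1-KO1, and 1 was higher and 5 lower in MLL1-KO2, with list medians of -0.24 and -0.28 on the log2 scale against -0.09 and -0.04 over all genes. The called share was 21.1% in MLL1-KO1, near the 23.2% of all genes, and 31.6% in MLL1-KO2, against 25.2%. Lower in both were DLAT (-1.06 and -0.72), IDH2 (-1.19 and -0.67), OGDH (-0.88 and -0.78), and SUCLA2 (-0.71 and -0.78). DLAT, the acetyltransferase of pyruvate dehydrogenase, was lower in the SAP30-KO lines as well (-0.84 and -0.97). No neighbors' median was taken for DLAT or the other listed genes, and the part of chromosome position was not tested. In the other 4 lines from 1 to 3 of the 19 genes were called (5.26% to 15.8%, against 13.6% to 16.4% of all genes), and the medians were from -0.06 to 0.05.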

How the data were processed

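The authors extracted total RNA from cultured cells, prepared mRNA libraries, sequenced them on an Illumina NextSeq 500, and deposited 1 table, in which every library has its own column and none is pooled. The submitters' notes name FastQC 0.11.2, TopHat, featureCounts, and hg19 (GRCh37). The authors named the values RPKM, but each library of the deposited table adds up to the same total, so they were used as TPM. A fixed total hides differences in total RNA. Dividing each gene's values by its smallest step gave back whole reads for 18519 of 18519 genes above 0 (100.0%, within 0.02 of a read). Low genes are imprecise at 18415036 to 23162682 reads per library.

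Groups came from the labels. The members and lists were chosen with earlier results of these data known. The design had been written for RPKM or TPM alike. The 13540 genes with 1 TPM or more in 2 or more libraries were fitted on log2(TPM + 0.5) (limma 3.58.1, R 4.3.3), giving each of 7 groups a mean, with a variance trend (7 residual, 3.6 prior degrees of freedom). Named were all genes called in both lines of a genotype, called between genotypes or lines, at the fold minimum, highest or lowest in a complex, isoforms, c ring genes, and those on 11q, 16q, and 7p. Others, among them SDHA, SDHB, COX5B, UQCRB, and the catalytic ATP synthase genes, were added after their values were seen. Positions are of GRCh37 with GENCODE release 44. Neighbors are the 50 nearest tested genes with a position (13062 genes). Same-numbered libraries did not deviate together (mean correlation 0.01, from -0.07 to 0.08 over 21 pairs of groups), and no replicate block was used. On simulated data 198 of 200 changed genes were recovered for SAP30-KO1 over 13163 genes. Alternatives were pseudocounts of 0.1 and 1, no filter, quantile and median ratio scaling, a 2-fold minimum or none, a fit to the compared libraries alone, a replicate block, voom on recovered reads, removal of GC content and length trends, subtraction of neighbors, and each library left out. A base with positioned genes only was added after seeing the data. Python 3.11.15, pandas 2.3.3, and matplotlib 3.10.9 were used.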

Additional observations from a re-analysis of the deposited data

Results flagged for a closer look

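In each of the following genes the difference between genotypes or between lines of a genotype passed its own test (limma, adjusted p under 0.05 and at least 1.5-fold), and no cause was tested. Groups of 2 libraries were too small to look for single outlying libraries. NDUFA7 was lower in MLL1-KO than in SAP30-KO lines by a log2 difference of -0.99 and than in SIN3A/3B-DKO lines by -1.17, with all 4 MLL1-KO libraries below the other 10. NDUFA4 (-0.63) and NDUFV1 (0.76) differed between MLL1-KO and SAP30-KO lines, and NDUFB2-AS1 (0.61) between MLL1-KO and SIN3A/3B-DKO lines. NDUFV1 (-0.81), ATP5L (-0.72), and SDHD (-0.68) were lower in SAP30-KO than in SIN3A/3B-DKO lines. Between MLL1-KO1 and MLL1-KO2 the log2 differences were -0.65 for NDUFC2, -0.63 for NDUFB2-AS1, 0.64 for NDUFA9, and 1.09 for NDUFA10. The calls of NDUFA4 and NDUFB2-AS1 were lost under several of the alternatives tried. With the running median of neighbors subtracted, NDUFV1 was not called for MLL1-KO against SAP30-KO (0.28) or SAP30-KO against SIN3A/3B-DKO (-0.29). SDHD (-0.14) and ATP5L (-0.11) were not called in the latter comparison either. Between the MLL1-KO lines, NDUFC2 (-0.22), NDUFA9 (0.08), and NDUFA10 (0.27) also lost their calls under this subtraction.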

How the results depend on the processing

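The fold minimum and the subtraction of neighbors moved the counts of called genes most. With no fold minimum, 38, 39, 38, 38, 39, and 53 of the 82 genes were called in the 6 lines (SAP30 first, then SIN3A/3B, then MLL1, line 1 before line 2), 41, 50, and 43 for MLL1-KO against SAP30-KO, MLL1-KO against SIN3A/3B-DKO, and SAP30-KO against SIN3A/3B-DKO, 6 between the SIN3A/3B-DKO lines, and 25 between the MLL1-KO lines. With a 2-fold minimum the same counts were 1, 1, 0, 0, 0, and 2, then 0, 1, and 0, and 1 between the MLL1-KO lines. With the running median of neighbors subtracted, 1, 1, 0, 0, and 2 genes were called in the first 5 of these lines, 0 for SAP30-KO against SIN3A/3B-DKO, and 1 between MLL1-KO lines, and NDUFA4 between MLL1-KO and SAP30-KO lines turned from -0.63 to 0.11. Genes with a position alone, with nothing subtracted, changed no call of the 44 tested, so the loss came from the subtraction. Shares of all genes on p alone are given above for the 6 lines and within genotypes, but not between genotypes. Nor are they given for the other settings here, so these counts describe the 82 genes alone. A pseudocount of 1 left 1 gene between MLL1-KO and SIN3A/3B-DKO lines, and median ratio scaling gave 5 for SAP30-KO against SIN3A/3B-DKO. The cause was not tested.

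With each library left out in turn, the counts were 5 to 8, 6 to 7, 2 to 3, 2 to 4, 6 to 8, and 6 to 8 in the 6 lines in the order above, 3 to 3, 1 to 2, and 3 to 5 between genotypes, (5 without SAP30-KO2 replicate 1, SIN3A/3B-DKO1 replicate 2, or SIN3A/3B-DKO2 replicate 2), and 0 to 0, 0 to 1 (1 without SIN3A/3B-DKO2 replicate 2), and 3 to 5 between the lines of SAP30-KO, SIN3A/3B-DKO, and MLL1-KO. A group then has 1 library, which is assumed to vary like the others. Leaving out a library kept 189 of 208 single calls and reversed 0. With the replicate block, 7, 6, 2, 3, 7, and 7 genes were called in the 6 lines, and it changed no call. NDUFA7 in MLL1-KO1 was not called under quantile normalization (-0.53), median ratio scaling (-0.51), or voom (-0.55). Depth limits NDUFB2-AS1, with 12 to 33 reads, and the 5 genes with at most 2 reads.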
